A study of Homo sapiens with 4 samples.

Results

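Described here are 10 genes. Of these, 8 are immediate early genes (EGR1, EGR2, FOS, FOSB, FOSL1, JUN, IER2 and MYC), and DUSP1 and DUSP6 are MAP kinase phosphatases. All were chosen by name from 57820 gene rows, with earlier results of these data known. They were followed by their strand-specific gene counts in 4 RNA-seq libraries. The cells were HEK293T, a human embryonic kidney line that carries the large T antigen, transfected with an expression vector for SF3B1, the subunit of the U2 snRNP that holds the intron branch point. There was 1 library for each vector: the substitutions R625H and K666T, for which the labels give 1000 ng of plasmid each, K700E, with 2000 ng, and the wild-type protein (WT), whose plasmid amount the labels do not state. The cells keep their own SF3B1 gene in all 4 groups, and no untransfected library was used here. Each library comes from poly(A) RNA read as 100-bp pairs, and since each vector has a single library, every difference below is between 2 libraries, without replicates.

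Immediate early genes are transcribed within minutes of a growth factor, stress or other stimulus without new protein synthesis. Kinases of the ERK, JNK and p38 cascades act on factors already bound at their promoters, such as SRF with its Ets-family partners at the CArG box and CREB at the cAMP response element. Many of the products are transcription factors themselves. FOS and JUN family proteins pair to form AP-1, EGR proteins are zinc finger activators, and the dual-specificity phosphatases remove phosphate from the kinases and so limit the response.

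The promoters are shown because these elements are what the genes are known for. RefSeq start sites on GRCh38.p14 were found for 8 of the 10 genes, and the 250 bases before each start were searched on both strands. EGR2 has 3 such windows, of which the one with a CArG box is printed. Capitals mark the CArG box (CC, 6 bases of A or T, GG), the full cAMP response element TGACGTCA, its core TGACG or CGTCA on the other strand, and the TATA box TATAAA.
EGR1, chr5:138465229-138465478 (plus strand): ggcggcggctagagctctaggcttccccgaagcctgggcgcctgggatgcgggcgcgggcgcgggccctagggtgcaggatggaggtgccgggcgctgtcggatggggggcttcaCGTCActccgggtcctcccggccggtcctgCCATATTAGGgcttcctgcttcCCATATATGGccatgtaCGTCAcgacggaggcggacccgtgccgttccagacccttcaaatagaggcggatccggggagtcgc
EGR2, chr10:62816367-62816616 (minus strand): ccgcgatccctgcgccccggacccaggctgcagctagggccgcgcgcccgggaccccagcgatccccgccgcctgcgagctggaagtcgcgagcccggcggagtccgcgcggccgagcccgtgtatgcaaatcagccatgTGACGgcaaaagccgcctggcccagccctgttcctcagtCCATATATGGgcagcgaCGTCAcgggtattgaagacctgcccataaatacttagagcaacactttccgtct
FOS, chr14:75278578-75278827 (plus strand): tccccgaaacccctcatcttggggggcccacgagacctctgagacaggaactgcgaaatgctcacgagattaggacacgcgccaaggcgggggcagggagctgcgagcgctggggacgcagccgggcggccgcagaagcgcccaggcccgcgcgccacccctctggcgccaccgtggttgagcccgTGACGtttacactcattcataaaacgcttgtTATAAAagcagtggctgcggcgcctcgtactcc
FOSB, chr19:45467746-45467995 (plus strand): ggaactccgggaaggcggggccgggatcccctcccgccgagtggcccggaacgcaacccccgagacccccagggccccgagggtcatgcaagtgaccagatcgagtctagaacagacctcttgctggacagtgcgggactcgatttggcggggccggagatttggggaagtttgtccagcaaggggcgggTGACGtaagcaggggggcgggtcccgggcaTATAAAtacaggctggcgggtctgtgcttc
DUSP1, chr5:172771196-172771445 (minus strand): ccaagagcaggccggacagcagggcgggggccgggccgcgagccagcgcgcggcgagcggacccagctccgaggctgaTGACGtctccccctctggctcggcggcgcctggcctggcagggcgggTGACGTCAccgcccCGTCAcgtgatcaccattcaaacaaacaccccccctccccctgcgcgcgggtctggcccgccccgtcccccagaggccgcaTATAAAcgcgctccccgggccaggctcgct
JUN, chr1:58784048-58784297 (minus strand): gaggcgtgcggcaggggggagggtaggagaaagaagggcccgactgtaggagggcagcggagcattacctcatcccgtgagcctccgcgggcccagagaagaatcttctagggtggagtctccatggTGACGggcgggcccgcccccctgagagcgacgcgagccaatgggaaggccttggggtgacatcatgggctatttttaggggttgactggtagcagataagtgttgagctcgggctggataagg

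A CArG box was found in 2 of the 8 genes, EGR1 and EGR2, against 1.16% of 35116 promoter windows of the same length. The units differ: a gene counts if any of its windows holds the motif, and the 8 genes have 10 windows, while the share of all promoters is per window. EGR1 holds CCATATTAGG from 105 to 96 bases and CCATATATGG from 83 to 74 bases before the start, and CCATATATGG also stands 71 to 62 bases before the EGR2 start. In both genes the Ets core GGAA lies within 30 bases of a CArG box, as in 0.749% of all windows. The serum response element for which FOS is known lies further upstream than the window searched. The full TGACGTCA was found in DUSP1 alone among these genes, against 1.65% of windows. Its core TGACG was found in 7 of the 8 genes, all but DUSP6, against 21.2% of windows, and it is contained in every TGACGTCA. TATAAA was found in DUSP1, FOS and FOSB, against 10.7% of windows. The AP-1 letters TGACTCA (4.2% of windows) and the EGR letters GCGGGGGCG (4.72%) were in none of the 8 genes' windows. These are matches of letters, and no binding was measured.

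Reads assigned to genes numbered 82254731 in R625H, 86394759 in K666T and 83025588 in K700E, against 90939945 in WT. SF3B1 itself was at 517, 521 and 512 CPM (gene counts scaled to the sum of a library's gene reads) in R625H, K666T and K700E, against 506 CPM in WT, so its gene count does not separate the vectors. Of the HEK293T markers, the keratins KRT8 and KRT18 lay between 64.9 and 180 CPM, the cadherin CDH2 between 115 and 124 CPM and the kidney factor PAX2 between 1.75 and 2.65 CPM over all 4 libraries. Among genes of blood, liver and fibroblasts, PTPRC, CD3E, HBB and ALB were under 1 CPM in every library, while COL1A1 (20.9 to 24.8 CPM) was above it. The mutant libraries differed from WT in other ways too. Unmapped pairs made up 16.5% in R625H, 17.3% in K666T and 15.2% in K700E, against 8.84% in WT. All 11 measurable interferon response genes of 12 were over 2-fold higher in each mutant library, with medians over WT of 2.84 (R625H), 2.39 (K666T) and 5.47 (K700E) on the log2 scale. The remaining gene, MX1, was under 1 CPM in every library. Its log2 ratios were 0.45 in R625H, 0.68 in K666T and 1.65 in K700E. The part of the unmapped pairs and of the interferon response in the results below was not tested.

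Of the 10 genes, 9 had a higher CPM in every mutant library than in WT, and MYC had a lower one. EGR1 and FOS differed most, by 2.14- to 2.97-fold, and JUN stood closest to WT, level with MYC in K700E. The order of the genes between them was not the same in the 3 mutant libraries. All 10 were above 1 CPM in at least 1 library and so were among the 14847 genes compared. A log2 ratio is given with a prior count of 10 added to both libraries, and its 95% interval, of the plain ratio of the counts, covers counting error only. Of the 10 genes, 4 were at least 1.5-fold higher in R625H than in WT (EGR1, FOS, FOSL1 and DUSP1), where 1.66% of all genes compared were. In K666T there were 6 (EGR1, EGR2, FOS, FOSL1, DUSP1 and DUSP6), where 2.1% of all genes were. In K700E there were also 6 (EGR1, EGR2, FOS, FOSB, DUSP1 and DUSP6), where 3.8% of all genes were. EGR1 and FOS were at least 2-fold higher in each of the 3 mutant libraries, where 0.653% of all genes (R625H), 0.694% (K666T) and 1.31% (K700E) were. None of the 10 was 1.5-fold lower in any mutant library, against 0.431% of all genes in R625H, 0.391% in K666T and 2.16% in K700E. Over WT, the 10 genes had a median log2 ratio of 0.53 in R625H, 0.74 in K666T and 0.65 in K700E. That of all genes compared was -0.02 in R625H and 0.00 in K666T and K700E. The 3 comparisons share the WT library, so they are not independent of each other. Since the 10 genes were chosen with earlier results of these data known, the shares of all genes are given for scale and not as a test.

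**Figure D1:**
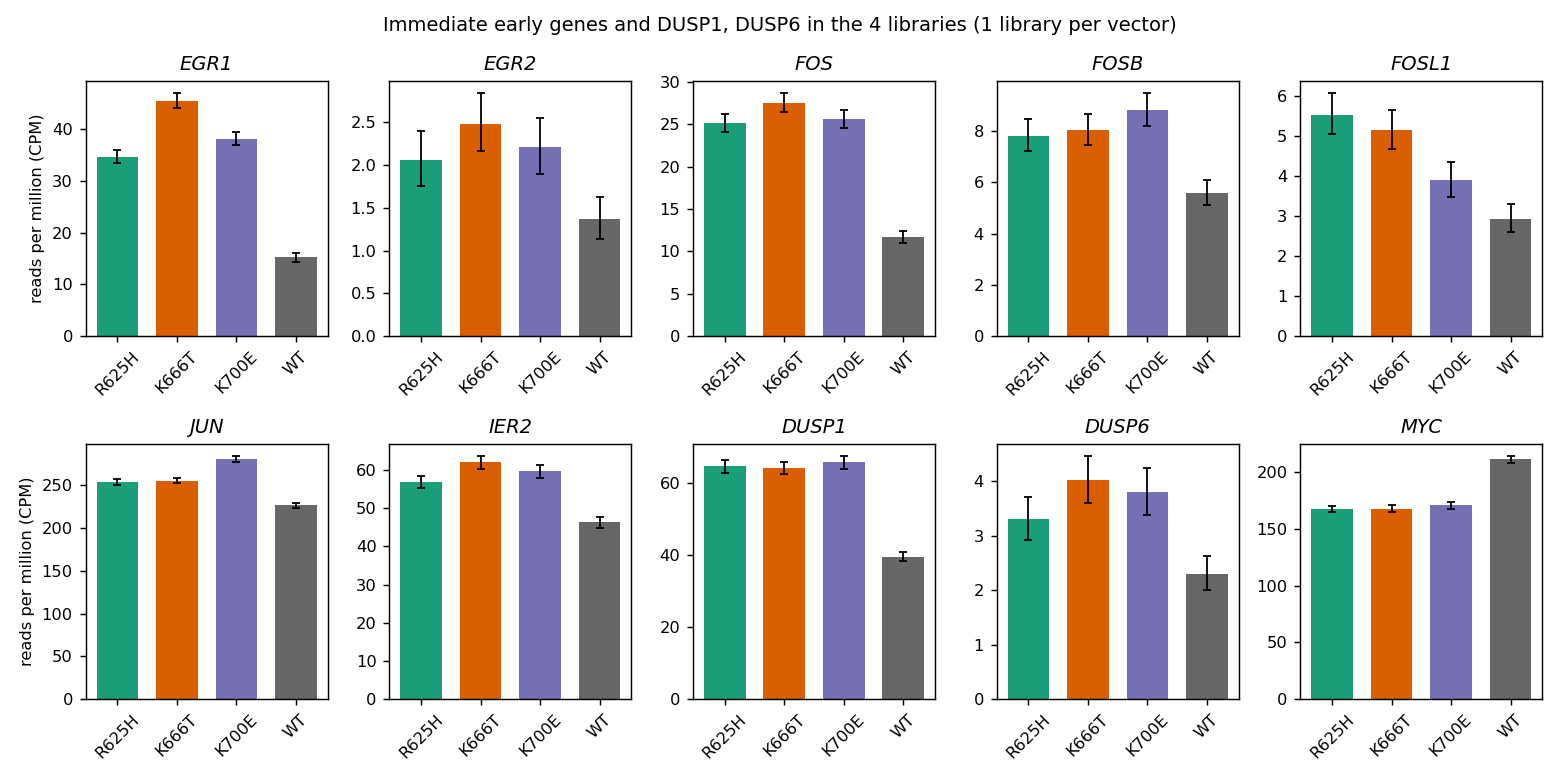
Scaled gene reads (CPM, y axis, each panel with its own scale from 0) of the 10 genes in the R625H, K666T, K700E and WT libraries, 1 library per bar, with the 95% Poisson counting interval. In every panel but MYC the WT bar is the lowest, and for MYC, at 211.5 CPM in WT, it is the highest.

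EGR1, the zinc finger factor that is a standard readout of ERK signalling, had 2844 reads in R625H, 3921 in K666T and 3162 in K700E, against 1382 in WT. These are 34.6, 45.4 and 38.1 CPM in R625H, K666T and K700E, against 15.2 CPM in WT. Every mutant library was above WT, K666T was highest, and all neighbours in the order differed beyond counting error. The log2 ratio over WT was 1.18 (95% counting interval 1.09 to 1.28) in R625H, 1.57 (1.49 to 1.67) in K666T and 1.32 (1.23 to 1.42) in K700E. In K666T only 33 of the 14847 genes had a larger ratio, in R625H 66 and in K700E 128.

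EGR2, a related zinc finger factor known for myelination and hindbrain development, was among the least abundant of the set. It had 169 reads (2.06 CPM) in R625H, 214 (2.48 CPM) in K666T and 183 (2.20 CPM) in K700E, against 124 (1.36 CPM) in WT. WT was the lowest, and the mutant libraries could not be ordered within counting error. The log2 ratios were 0.55 (0.25 to 0.94) in R625H, 0.81 (0.54 to 1.19) in K666T and 0.65 (0.36 to 1.03) in K700E, so that R625H stayed under the 1.5-fold limit, at 1.47-fold.

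FOS, the leucine zipper partner of JUN in AP-1, had 2063 reads (25.1 CPM) in R625H, 2376 (27.5 CPM) in K666T and 2121 (25.6 CPM) in K700E, against 1059 (11.7 CPM) in WT. The mutant libraries lay close together, far above WT, and only K666T stood above its neighbour K700E beyond counting error. The log2 ratio over WT was 1.10 (0.999 to 1.22) in R625H, 1.23 (1.14 to 1.35) in K666T and 1.13 (1.03 to 1.24) in K700E.

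FOSB, whose shortened splice form is known from chronic stimulation of neurons, had 643 reads (7.82 CPM) in R625H, 694 (8.03 CPM) in K666T and 731 (8.81 CPM) in K700E, against 509 (5.597 CPM) in WT. WT was again the lowest, and neighbouring mutant libraries did not differ beyond counting error, while the highest, K700E, stood above R625H, the lowest of them. The log2 ratios were 0.47 (0.31 to 0.65) in R625H, 0.51 (0.35 to 0.69) in K666T and 0.64 (0.49 to 0.82) in K700E.

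FOSL1, also called FRA1, lacks the transactivation domain of FOS and is known to be stabilised by ERK. It had 455 reads (5.53 CPM) in R625H, 445 (5.15 CPM) in K666T and 323 (3.89 CPM) in K700E, against 267 (2.94 CPM) in WT. R625H and K666T were alike within counting error, K700E stood below them and WT below K700E. The log2 ratio over WT was 0.89 (0.69 to 1.14) in R625H, 0.79 (0.59 to 1.04) in K666T and 0.39 (0.17 to 0.65) in K700E.

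JUN, the partner of FOS in AP-1, was the most abundant of the 10 genes per length in the mutant libraries and is made from a gene without introns. It had 20858 reads (254 CPM) in R625H, 22088 (256 CPM) in K666T and 23332 (281 CPM) in K700E, against 20629 (227 CPM) in WT. The counts are large enough to separate all mutant libraries from WT and K700E from the other mutants, but the differences were small. The log2 ratio was 0.16 (0.13 to 0.19) in R625H, 0.17 (0.15 to 0.20) in K666T and 0.31 (0.28 to 0.34) in K700E. Of all genes compared, 85.6% had a lower ratio than JUN in R625H, 82.3% in K666T and 88.4% in K700E, so many other genes differed as much as JUN.

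IER2, a nuclear immediate early protein, had 4680 reads (56.9 CPM) in R625H, 5359 (62.0 CPM) in K666T and 4957 (59.7 CPM) in K700E, against 4214 (46.3 CPM) in WT. The mutant libraries were all above WT, by log2 ratios of 0.30 (0.24 to 0.36) in R625H, 0.42 (0.36 to 0.48) in K666T and 0.37 (0.31 to 0.43) in K700E. Without strand only 2057, 2530 and 2301 reads were assigned to it in R625H, K666T and K700E, against 1942 in WT.

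DUSP1, the nuclear phosphatase that acts on p38, JNK and ERK, had 5310 reads (64.6 CPM) in R625H, 5539 (64.1 CPM) in K666T and 5453 (65.7 CPM) in K700E, against 3595 (39.5 CPM) in WT. The 3 mutant libraries did not differ from each other beyond counting error and lay well above WT. The log2 ratio was 0.71 (0.65 to 0.77) in R625H, 0.70 (0.64 to 0.76) in K666T and 0.73 (0.67 to 0.79) in K700E. Between 97.6 and 98.8% of all genes had a lower ratio than DUSP1.

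DUSP6, the cytoplasmic phosphatase that is selective for ERK, had 271 reads (3.30 CPM) in R625H, 347 (4.02 CPM) in K666T and 315 (3.79 CPM) in K700E, against 209 (2.30 CPM) in WT. WT was lowest, and neighbouring mutant libraries did not differ beyond counting error. The log2 ratio was 0.50 (0.25 to 0.79) in R625H, 0.78 (0.55 to 1.06) in K666T and 0.70 (0.47 to 0.98) in K700E.

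MYC, the helix-loop-helix factor that drives growth with its partner MAX, ran the other way. It had 13810 reads (168 CPM) in R625H, 14523 (168 CPM) in K666T and 14177 (171 CPM) in K700E, against 19234 (211.5 CPM) in WT. The mutant libraries did not differ from each other beyond counting error and all lay under WT. The log2 ratio was -0.33 (-0.37 to -0.30) in R625H, -0.33 (-0.36 to -0.30) in K666T and -0.31 (-0.34 to -0.28) in K700E. It did not reach 1.5-fold, yet the share of all genes with a lower ratio than MYC was 4.12% in R625H, 3.66% in K666T and 9.48% in the K700E library.

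**Figure D2:**
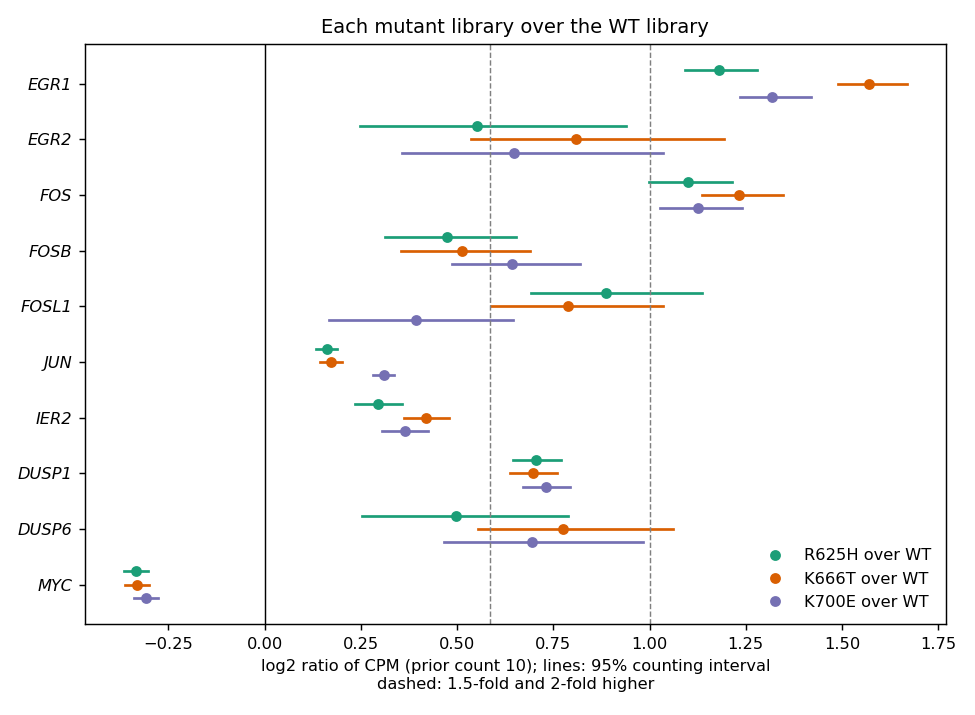
Log2 ratio of CPM (x axis, prior count 10) of each mutant library over WT for the 10 genes (rows), with 95% counting intervals, and dashed lines at 1.5-fold and 2-fold higher. EGR1 and FOS are past 2-fold in all 3 comparisons, JUN is the nearest to 0 in R625H and K666T, and MYC lies at -0.33 to -0.31.

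At this depth all 10 genes differed from WT beyond counting error in each comparison, which also holds for many other genes. The interval lay above 0 for 9 of the 10 genes in each comparison, where it did for 24.9% of all genes in R625H, 29.3% in K666T and 33.2% in K700E, and below 0 for MYC, where it did for 30.4%, 28.4% and 32.7% in R625H, K666T and K700E. It says nothing of how far 2 cultures with the same vector would differ.

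Per kilobase of exon, the levels spanned about the same order in all libraries. JUN was at 71.6, 72.2 and 79.4 CPM per kb in R625H, K666T and K700E, against 64.1 in WT. MYC was at 55.9, 56.0 and 56.9 CPM per kb in R625H, K666T and K700E, against 70.5 in WT, so that MYC stood below JUN in the mutant libraries and above it in WT. DUSP1 followed at 31.7 to 32.5 CPM per kb in the mutant libraries, against 19.6 in WT, and IER2 at 18.5 to 20.2, against 15.1. EGR1 lay at 11.02 to 14.46 CPM per kb in the mutant libraries, against 4.84 in WT, and FOS at 8.54 to 9.36, against 3.96. FOSL1, FOSB, DUSP6 and EGR2 were the lowest, between 0.655 and 3.01 CPM per kb in the mutant libraries, against 0.435 to 1.60 in WT. The 2 genes with the largest ratios were thus neither the most nor the least abundant.

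The mutant libraries were also set against each other. None of the 10 genes was 1.5-fold apart between any pair. Of all genes, 0.263% were that much higher and 0.303% lower in R625H than in K666T, which had the same plasmid amount. For R625H over K666T the interval lay below 0 for 4 of the 10 genes and above 0 for none, against 22.3% and 11.8% of all genes. These were EGR1, at -0.39 (-0.46 to -0.32), FOS (-0.13), IER2 (-0.12) and DUSP6 (-0.28). For EGR1, 1.43% of all genes had a lower ratio. For K700E, with the larger plasmid amount, over K666T the interval lay below 0 for 3 genes, FOS included (24.4% of all genes), and above 0 for JUN (22.6%). The widest differences were in FOSL1, at -0.40 (-0.62 to -0.20), and EGR1, at -0.25 (-0.32 to -0.19), where 1.3% of all genes were 1.5-fold higher and 0.822% lower. Over R625H, the K700E interval lay above 0 for 4 genes (30.5% of all genes) and below 0 for 1 (22.1%). K700E was lower in FOSL1 by -0.50 (-0.72 to -0.30) and higher in FOSB by 0.17 (0.02 to 0.33), JUN by 0.15 (0.12 to 0.18), EGR1 by 0.14 (0.07 to 0.21) and IER2 by 0.07 (0.01 to 0.13), where 1.93% of all genes were 1.5-fold higher and 1.17% lower. The plasmid amount and the substitution cannot be told apart in the comparisons with K700E.

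The interferon response genes, also higher than WT in each mutant library, had larger ratios than the 10 genes between K700E and the other mutant libraries. Their median log2 ratio was 3.08 for K700E over K666T, with all 11 measurable genes at least 2-fold higher (0.599% of all genes). MX1, left out by the 1-CPM filter, was at 0.97. That filter keeps a gene by its highest library, and IFNB1 passed it through K700E alone, at 4.36 CPM. The 10 genes described here had ratios between -0.40 and 0.14 in the same comparison. RSAD2, the antiviral enzyme viperin, was at 16.5, 10.6 and 184 CPM in R625H, K666T and K700E, against 1.19 CPM in WT. DUSP1 was at 64.6, 64.1 and 65.7 CPM in the same 3 mutant libraries, against 39.5 CPM in WT. Neither gene is typical of its list. For K700E over K666T, RSAD2 had the largest log2 ratio of its list, at 4.109, and DUSP1 was among the nearest to 0, at 0.035. In the same comparison EGR1 was at -0.25 and FOSL1 at -0.40.

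**Figure D3:**
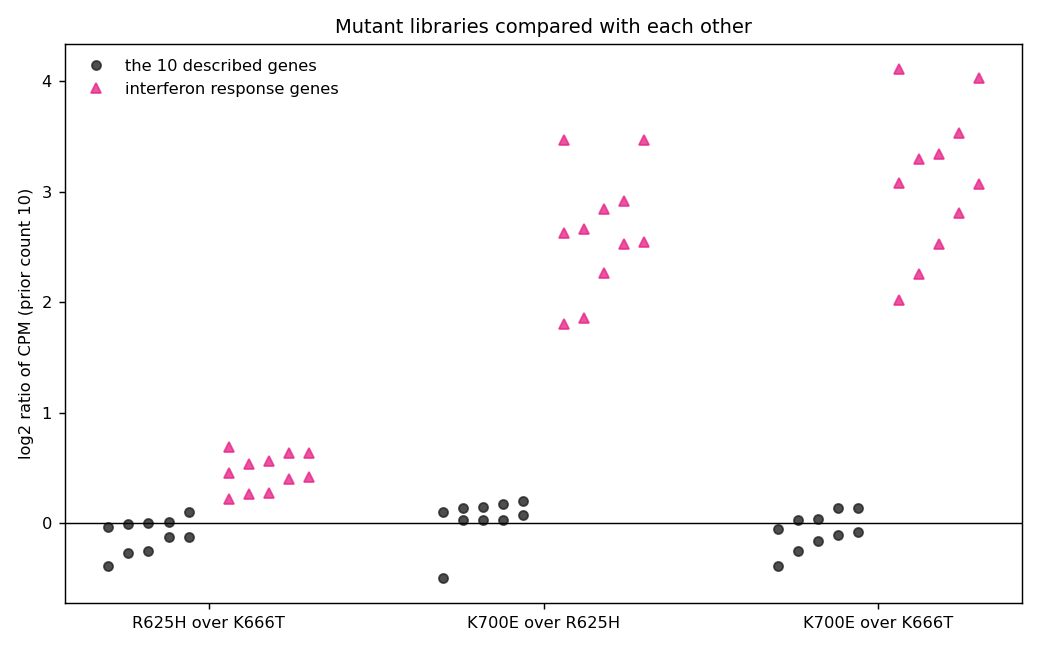
Log2 ratios of CPM (y axis, prior count 10) between mutant libraries for the 10 described genes (circles) and the 11 measurable interferon response genes (triangles). The circles stay within -0.50 and 0.20 in each comparison, and the triangles lie above 1.5 in both comparisons with K700E on top.

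Other genes of the pathway were taken from lists chosen by function, and the lists, like the members, were drawn up with earlier results of these data known. Of 30 other immediate early genes, 29 were measurable, and the number at least 1.5-fold higher than in WT was 7 in R625H, 8 in K666T and 8 in K700E. Of all genes compared, 1.66% were in R625H, 2.1% in K666T and 3.8% in K700E. Their median log2 ratios were 0.40, 0.39 and 0.31 in R625H, K666T and K700E. PPP1R15A, the phosphatase subunit GADD34 that restores translation after stress, was the only one past 2-fold. It was at 160, 176 and 201 CPM in R625H, K666T and K700E, against 77.5 CPM in WT, with log2 ratios of 1.05, 1.18 and 1.38. No gene of this list was 1.5-fold lower in any mutant library.

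Of 8 other MAP kinase phosphatases, 1 in R625H and 2 each in K666T and K700E were at least 1.5-fold higher, and the medians were 0.34, 0.29 and 0.22 in R625H, K666T and K700E. For this list and the next, the share of all genes past that limit was 1.66% in R625H, 2.1% in K666T and 3.8% in K700E. DUSP8, which acts on JNK and p38, led them at 25.3, 28.2 and 26.7 CPM in R625H, K666T and K700E, against 13.4 CPM in WT. Its log2 ratios were 0.91 (0.81 to 1.02) in R625H, 1.06 (0.97 to 1.17) in K666T and 0.99 (0.89 to 1.09) in K700E. Of 12 other genes of ERK output and feedback, 3 were at least 1.5-fold higher in each mutant library, with medians of 0.20, 0.28 and 0.24. SPRY4, a Sprouty inhibitor of receptor tyrosine kinase signalling, was at 5.63, 7.04 and 6.34 CPM in R625H, K666T and K700E, against 2.77 CPM in WT, and its log2 ratios were 0.99, 1.31 and 1.16. The other two were the Ets factors ETV4, at 0.69, 0.75 and 0.69, and ETV5, at 0.83, 0.90 and 0.88 in the same order of libraries.

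The genes that encode the cascades themselves were not past 1.5-fold, a limit that few of all genes passed: 1.66% higher and 0.431% lower in R625H, 2.1% and 0.391% in K666T, and 3.8% and 2.16% in K700E. With such shares, none past it in lists of this size is near the background. None of 18 ERK cascade genes was 1.5-fold higher or lower in any mutant library, and their medians were -0.04, -0.02 and -0.04 in R625H, K666T and K700E. None of 10 JNK and p38 cascade genes passed 1.5-fold, with medians of -0.04, -0.02 and -0.13. The widest ratios in K700E were those of MAP2K6 (-0.47) and MAP2K7 (0.34), kinases of p38 and JNK, and of the GTPase HRAS (-0.34). None of 10 genes for SRF, its Ets and MRTF partners, CREB1, CREM and the EGR corepressors NAB1 and NAB2 passed it, with medians of 0.00, 0.06 and 0.06. Of 9 partners of AP-1, 8 were measurable, with 2 at least 1.5-fold higher in R625H, 2 in K666T and 1 in K700E. These are FOSL2 and ATF3, and ATF3 alone in K700E, both of which the list of other immediate early genes holds too. The list medians were 0.19, 0.07 and 0.08. Of 12 genes of the MYC network, none passed 1.5-fold in R625H or K666T, and in K700E 1 was higher and 1 lower. Protein phosphorylation was not measured.

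**Figure D4:**
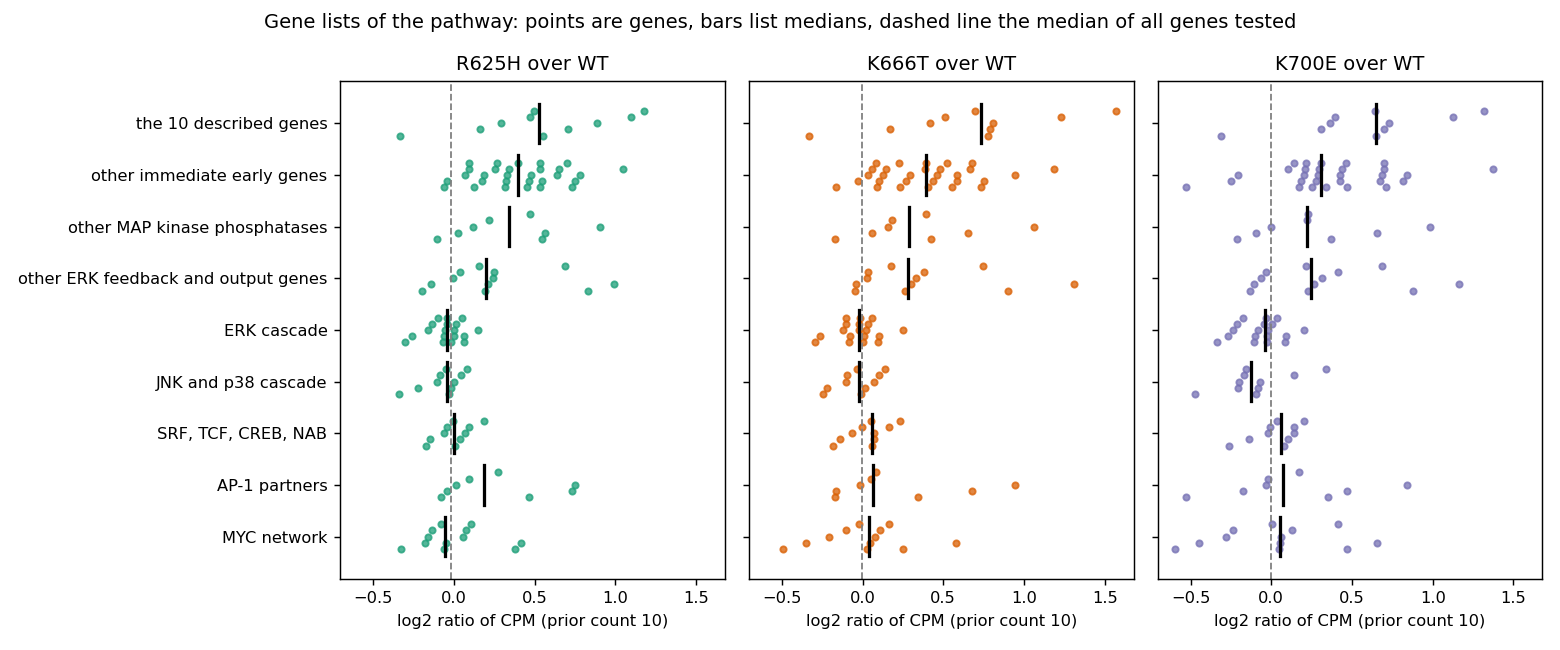
Log2 ratios of CPM over WT (x axis, prior count 10) of the genes in each pathway list (rows), in 1 panel for each mutant library, with the list medians as black bars and the median of all genes compared as a dashed line. The medians of the 10 described genes lie at 0.53, 0.74 and 0.65 in R625H, K666T and K700E, and those of the cascade genes between -0.13 and -0.02.

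The genes whose 3 log2 ratios over WT were most like those of EGR1 were sought among 11286 genes with at least 5 CPM in every library, by the largest of the 3 differences. The nearest was DNAH17, an axonemal dynein gene, with a largest difference of 0.18, followed by DHRS2 (0.23), FOS (0.34), PPP1R15A (0.39) and INHBE (0.43). DNAH17 was at 16.9, 21.6 and 20.4 CPM in R625H, K666T and K700E, against 7.16 CPM in WT. For FOS the nearest were DUSP8 (0.19), PPP1R15A (0.25), ETV5 (0.33), EGR1 (0.34) and ATF3 (0.35). ATF3, a stress-induced factor of the same leucine zipper class, was at 208, 238 and 221 CPM in R625H, K666T and K700E, against 124 CPM in WT. Likeness here rests on 4 libraries.

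Reads that cross an exon junction give another count of the same libraries, restricted to spliced RNA and scaled to all uniquely mapped junction reads. They were available for the 9 genes with introns. The median log2 ratio over WT was 0.69 in R625H, 0.52 in K666T and 0.44 in K700E, the last falling to 0.26 when multi-mapped junction reads were added. The same share over all genes was not computed for junction reads, so the genes are described singly. FOS had 524, 634 and 581 junction reads in R625H, K666T and K700E, against 239 in WT, with log2 ratios of 1.22 (1.04 to 1.49) in R625H, 1.44 (1.26 to 1.70) in K666T and 1.26 (1.08 to 1.52) in K700E. These are close to the ratios of its gene reads. For EGR2 the log2 ratio in junction reads was 0.52 (-0.275 to 2.195) in K666T and 0.27 (-0.77 to 1.835) in K700E. DUSP6 was at 0.63 (-0.001 to 1.91) in K666T and 0.44 (-0.30 to 1.665) in K700E. FOSL1 was at 0.18 (-0.27 to 0.68) in K700E. All of these intervals hold 0. In R625H the intervals of EGR2, DUSP6 and FOSL1 lay above 0, as did that of FOSL1 in K666T. IER2 gave 10 to 29 junction reads in the mutant libraries, against 12 in WT. Its log2 ratio in junction reads was -0.07 (-1.51 to 1.20) in R625H, and with multi-mapped reads added -0.74 (-2.43 to -0.10), opposite in sign to its gene reads. In K700E it was 0.83 (0.28 to 2.40), and 0.26 (-0.44 to 1.17) with multi-mapped reads. On matched annotated introns alone the IER2 ratio was 0.06 (-1.295 to 1.55) in R625H, from 10 reads there and 10 in WT. In K700E that count gave 0.44 (-0.43 to 2.07).

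In K700E the junction reads of 3 genes stood apart from their gene reads. EGR1, which has 1 intron, gave 127, 152 and 89 junction reads in R625H, K666T and K700E, against 64 in WT. That is 4.47, 3.88 and 2.81 junction reads for each 100 gene reads in R625H, K666T and K700E, against 4.63 in WT. The EGR1 log2 ratio in junction reads was 1.002 (0.67 to 1.57) in R625H, 1.19 (0.89 to 1.76) in K666T and 0.44 (0.01 to 0.98) in K700E, and the last interval does not reach that of its gene reads. DUSP1 gave 1030, 1010 and 862 junction reads in R625H, K666T and K700E, against 693 in WT, or 19.4, 18.2 and 15.8 for each 100 gene reads, against 19.3. Its log2 ratio in K700E was 0.33 (0.19 to 0.48) in junction reads, against 0.73 in gene reads. MYC gave 2163, 2291 and 2596 junction reads in R625H, K666T and K700E, against 2840 in WT, and in K700E its log2 ratio was -0.11 (-0.19 to -0.03), nearer to 0 than in gene reads. Over all genes K700E also held more junction reads, at 80.3, 79.5 and 85.7 for each 100 gene reads in R625H, K666T and K700E, against 79.2 in WT. The part of this in the K700E ratios was not tested.

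**Figure D5:**
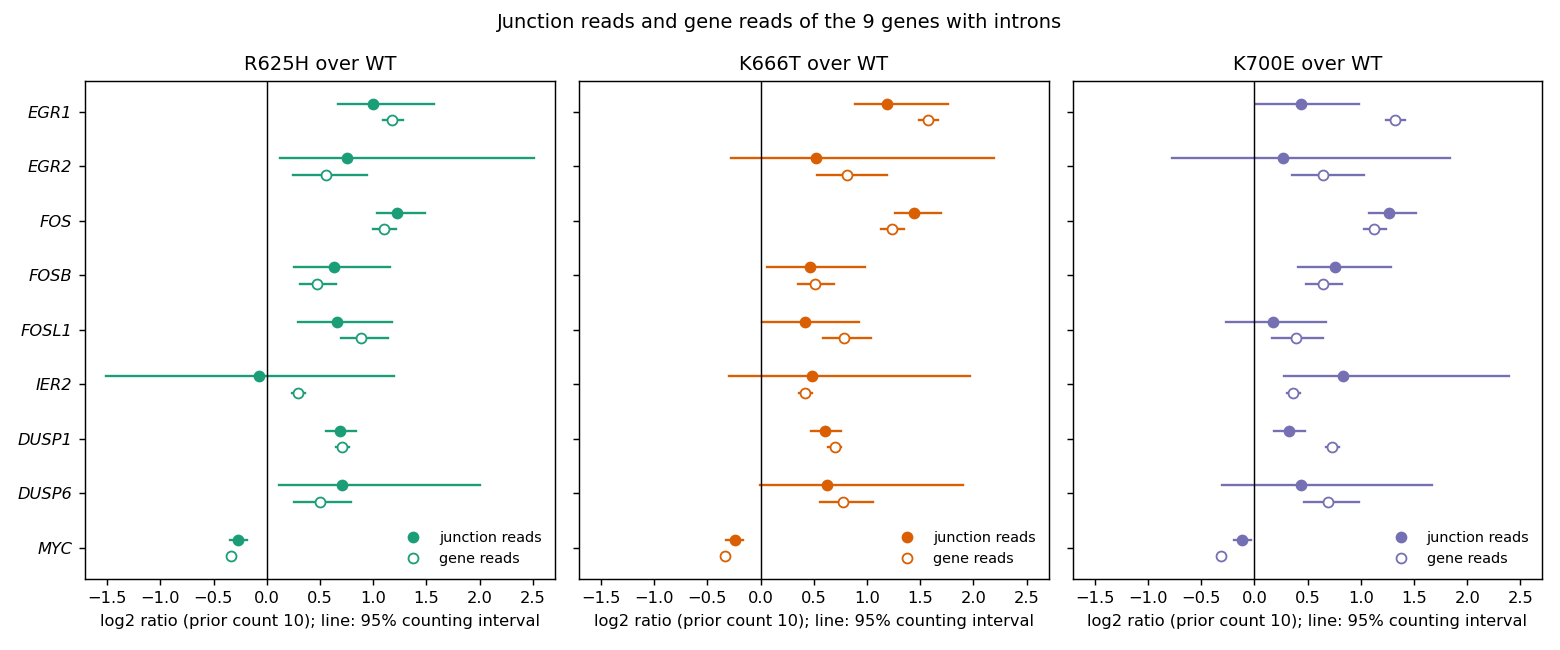
Log2 ratio over WT (x axis, prior count 10) of junction reads (filled) and gene reads (open) for the 9 genes with introns, in 1 panel for each mutant library, with 95% counting intervals. The FOS intervals of both counts overlap in all panels, and EGR1, DUSP1 and MYC separate in K700E.

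Since SF3B1 acts on the choice of the 3' splice site, acceptor pairs of 1 donor that lay 3 to 50 nt apart and held at least 50 reads over the 4 libraries were listed for these genes. Annotation status was taken from intron lengths in the GENCODE basic set. In every pair with an unannotated acceptor, that acceptor lay downstream of an annotated one of the same donor. In the first intron of FOS an acceptor 29 nt downstream took 6.80%, 10.5% and 4.8% of the pair's reads in R625H, K666T and K700E, against 3.28% in WT. In its second intron an acceptor 10 nt downstream took 5.71%, 4.46% and 2.63% in R625H, K666T and K700E, against 1.39% in WT. Each rests on 14 reads or fewer at the lesser site, with 2 and 1 in WT, and no difference is read from them. In DUSP1 an acceptor 41 nt downstream took 0 reads beside 317, 352 and 273 in R625H, K666T and K700E, where Wilson intervals allow up to 1.20%, 1.08% and 1.39%, against 7 reads or 3.33% (1.62 to 6.72) in WT. That site rests on 7 reads of 1 library, and no difference is read from it either. The 3-nt pair of MYC was used alike, with the downstream site at 24.4%, 25.4% and 24.6% in R625H, K666T and K700E, against 24.8% in WT.

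In FOSB, removal of a 140-nt intron within the coding sequence gives the shortened deltaFOSB form. It was crossed by 16, 11 and 28 reads in R625H, K666T and K700E, against 7 in WT. These are 2.49% (exact binomial interval 1.43 to 4.01) of FOSB gene reads in R625H, 1.59% (0.79 to 2.82) in K666T and 3.83% (2.56 to 5.49) in K700E, against 1.38% (0.56 to 2.81) in WT. As a log2 ratio of these shares over WT, without a prior count, this was 0.86 (-0.51 to 2.38) in R625H, 0.21 (-1.29 to 1.81) in K666T and 1.48 (0.25 to 2.92) in K700E, so that only the K700E interval left out 0. The intron just before it, which is not specific to deltaFOSB, was crossed by 37, 31 and 42 reads in R625H, K666T and K700E, against 15 in WT. Per FOSB gene read it was higher too, by 0.97 (0.07 to 1.94) in R625H, 0.60 (-0.33 to 1.60) in K666T and 0.96 (0.08 to 1.92) in K700E on the log2 scale, the K666T interval holding 0. Not every FOSB intron ran this way. A 244-nt intron was crossed by 32, 28 and 35 reads in R625H, K666T and K700E, against 34 in WT. FOSB gene reads were 643, 694 and 731 in the same order, against 509 in WT. Per gene read the 244-nt intron was thus lower in each mutant library, and no interval was computed for it. Junctions outside the basic annotation were also read, some in 1 library only. A 719-nt junction in DUSP1 had 0 reads in each mutant library, against 36 in WT, and a 183-nt junction there had 20 reads in K666T and none elsewhere. A 287-nt junction in DUSP1 had 11, 15 and 9 reads in R625H, K666T and K700E, against 0 in WT, where a count of 0 allows up to 3 reads, and a 313-nt junction in the last exon of MYC had 37 reads in K700E alone.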

How the data were processed

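For every library the authors deposited 2 kinds of raw counts, reads per gene and reads per splice junction. The submitters' processing notes name STAR 2.5.3a, HTSeq and the build hg19 (GRCh37), with no role for HTSeq and no annotation release. The junction files also hold, as deposited by the authors, the longest overhang of each junction, which was not used. The strand-specific column opposite to read 1 was taken, as the kit named in the labels is stranded. The 4 rows without a gene (unmapped, multimapping, no feature, ambiguous) were left out of library sizes; multimapping pairs were 4.11, 4.01 and 4.14% in R625H, K666T and K700E, against 4.40% in WT, pairs in no feature 5.01, 5.19 and 5.87%, against 5.23%, and ambiguous pairs 3.15, 3.04 and 3.27%, against 3.43%. Of 57820 gene IDs, 51996 matched a gene name table.

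Counts were scaled to the sum of gene reads (CPM), and genes with at least 1 CPM in at least 1 of the 4 libraries were compared. Log2 ratios carry a prior count of 10, and intervals are 95% exact conditional Poisson intervals of the ratio. Intervals cover counting error only, since each group has 1 library. The reads carry no molecular identifiers, so copies of 1 molecule could not be told from separate molecules. With 1 library per group no test was made. Introns of the members were matched by length and order to GENCODE release 29. The members and lists were chosen with earlier results of these data known. Named genes were all members, genes of the other lists at least 2-fold from WT in a mutant library (at most 6 per list), and the 5 genes most like EGR1 and FOS; ETV4, FOSL2, MAP2K6, MAP2K7, HRAS and the single junctions were picked after their values were seen. Alternatives were TMM factors (edgeR 4.0.16), DESeq2 1.42.0 size factors, a prior count of 1, unstranded counts, other filters and other sets of junction reads. The ratio and its limits were also run on simulated Poisson counts with known fold changes. Such counts hold counting error only, so the run cannot show how far cultures differ. Python 3.11.15 with pandas 2.3.3, numpy 2.4.6, scipy 1.17.1 and matplotlib 3.10.9 was used. A gene of the marker lists is not reported here.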

Additional observations from a re-analysis of the deposited data

How the results depend on the processing

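The counts of the 10 genes past 1.5-fold and 2-fold and their median log2 ratios kept their direction and size under TMM factors, DESeq2 size factors, a prior count of 1 and unstranded counts. With a prior count of 1, 5 genes were at least 1.5-fold higher in R625H, against 4 before, EGR2 being the one added. The scaling alternatives moved the median of all genes by at most 0.025 on the log2 scale. IER2 in R625H moved to 0.23 with unstranded counts. The junction median of K700E moved to 0.26 with multi-mapped reads added, and the EGR1 interval there then reached 0 (-0.00 to 0.97). IER2 in R625H, at -0.07 in junction reads, was at -0.74 with them and at 0.06 on matched annotated introns alone. The share of all genes past a limit depends on the filter. At least 1.5-fold higher were 2.81% in R625H and 3.35% in K666T with no filter, and 0.79% in R625H, 0.877% in K666T and 1.8% in K700E among genes with 10 CPM in at least 1 library. At least 2-fold higher were 0.405% in R625H, 0.357% in K666T and 0.723% in K700E under that stricter filter. At least 1.5-fold lower were 1.33% in R625H and 1.06% in K666T with no filter, and 0.135%, 0.0964% and 0.973% in R625H, K666T and K700E under the stricter one. No paired analysis was possible because each group has 1 library, and for the same reason no library could be left out. Depth limits EGR2, DUSP6 and the junction reads most.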
